A study of Mus musculus with 30 samples.

Results

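The 33 genes described here are markers of the blood vessel wall in brain: 23 of endothelial cells and 10 of mural cells. They were chosen by name among the 51752 genes of the count table. All 33 were found and all 33 passed the filter on low counts in every comparison below. RNA had been sequenced from 15 mice in an experiment that deleted Il34, the gene of the cytokine interleukin-34 (IL-34), and an experiment that blocked the protein with an antibody. The first held 4 heterozygotes (Het, 2 males and 2 females), which keep 1 intact copy of Il34, and 3 knockouts (KO, 1 male and 2 females). The second held wild-type mice given anti-gp120 as the control antibody (4 animals, 2 males and 2 females) or anti-IL34 (4 animals, 3 males and 1 female). All animals were perfused with saline before the forebrain was split at the midline. Each gave a whole-forebrain library and, from the other hemisphere, a library of cells captured with CD11b magnetic beads, called isolates here and microglia in the labels. The labels used here give no age, antibody dose or injection schedule, and each experiment had its own animals and its own controls.

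Endothelial cells line the vessels of the brain. Their tight junctions, low transcytosis and specialised transporters form the blood-brain barrier. Mural cells wrap that tube from outside, pericytes along capillaries and contractile smooth muscle cells around arteries and arterioles. CD11b is an integrin of microglia and other myeloid cells and is not a marker of the vessel wall, so whole forebrain is the sample in which vascular RNA is read in its tissue, and the isolates show how far transcripts of these genes were present after the capture. Whether captured myeloid cells made some of them was not tested.

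Promoter sequences of endothelial members are shown because these genes moved in the same direction between the sample types (described below). In RefSeq windows of GRCm38.p6, 21 of the 33 members were matched, and the 250 bases before the start were searched for GGAAGT on either strand, a core bound by ETS transcription factors, the family of the member Erg. It was present in 7 of 20 endothelial windows (35%; Egfl7, Eng, Flt1, Kdr, Ly6c1 and Tie1), in 0 of 6 mural windows and in 19.7% of all 32851 windows. The same windows were searched for the CArG box, an element of smooth muscle genes, in its strict form only, so that known elements with a mismatch are missed. That form was in 0 of 20 endothelial and 0 of 6 mural windows and in 1.47% of all windows, and nothing follows from it about such elements in these promoters. The windows of Eng (chr2:32646345-32646594, plus strand), Flt1 (chr5:147726012-147726261, minus strand) and Kdr (chr5:75978456-75978705, minus strand) are given 5′ to 3′ with the match in capitals, which begins 53, 52 and 217 bases before the start. A match is a string of letters and no evidence of binding.
Eng: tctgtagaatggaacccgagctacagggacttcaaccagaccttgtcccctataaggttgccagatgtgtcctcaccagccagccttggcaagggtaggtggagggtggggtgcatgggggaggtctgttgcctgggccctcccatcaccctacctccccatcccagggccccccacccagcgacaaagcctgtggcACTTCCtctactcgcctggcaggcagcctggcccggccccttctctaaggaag
Flt1: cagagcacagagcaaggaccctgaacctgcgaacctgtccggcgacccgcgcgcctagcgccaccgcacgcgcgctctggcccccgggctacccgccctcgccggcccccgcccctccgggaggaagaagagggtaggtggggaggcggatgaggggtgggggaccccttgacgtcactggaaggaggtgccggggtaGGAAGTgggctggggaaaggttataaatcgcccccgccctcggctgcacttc
Kdr: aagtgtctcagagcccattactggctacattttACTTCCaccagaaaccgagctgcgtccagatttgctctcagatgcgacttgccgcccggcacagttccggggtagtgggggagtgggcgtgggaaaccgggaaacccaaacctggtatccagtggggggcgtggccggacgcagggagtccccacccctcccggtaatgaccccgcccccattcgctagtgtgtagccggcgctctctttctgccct

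Library totals ran from 15.1 M to 75.2 M counts (M, mega), and levels are given as CPM (counts scaled to library size) after 1 TMM scaling over the 30 libraries. Il34 checked the labels: in forebrain it stood at 18.6 to 23.2 CPM in Het and 6.55 to 8.31 CPM in KO. Csf1r, the receptor of IL-34 and a microglial gene, ran from 42.4 to 48.3 CPM in Het forebrain and from 14.4 to 17.4 CPM in KO forebrain. It ran from 62.2 to 94.1 CPM with anti-gp120 and from 30.5 to 39.1 CPM with anti-IL34. The summed level of the 10 microglial markers was 230.6 to 496 CPM in control forebrain and 11723 to 21596 CPM in control isolates, so markers of the labelled cells were enriched. The isolates held other cells' RNA as well: 7 of 7 border macrophage markers and 8 of 8 neutrophil and monocyte markers were higher in them than in forebrain. Of 8 astrocyte markers 5 were higher (median log2 fold change 0.59) and of 8 oligodendrocyte markers 1 (median 0.11), with summed levels in control isolates of 3141 to 18811 CPM and 3186 to 10909 CPM. In control forebrain these sums were 6792 to 7749 CPM and 5060 to 6420 CPM. Their part in the vascular difference between tissues was not tested.

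How much vascular RNA the CD11b isolates carried was asked in the 8 control animals (4 Het and 4 anti-gp120). All 23 endothelial genes were higher in isolates than in forebrain, with a median log2 fold change of 1.86. The mural genes split. Genes of smooth muscle contraction rose the most of all 33, and genes shared by both mural types rose moderately. Of the 4 pericyte genes Vtn rose, Abcc9 fell, and Kcnj8 and Higd1b were not called. In all, 7 of 10 mural genes were called higher and 1 lower, with a median log2 fold change of 1.39 against -0.05 over all genes tested. By edgeR's quasi-likelihood F test with Benjamini-Hochberg adjustment, 40.5% of all 19952 genes tested were called higher and 43% lower in isolates.

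**Figure D1:**
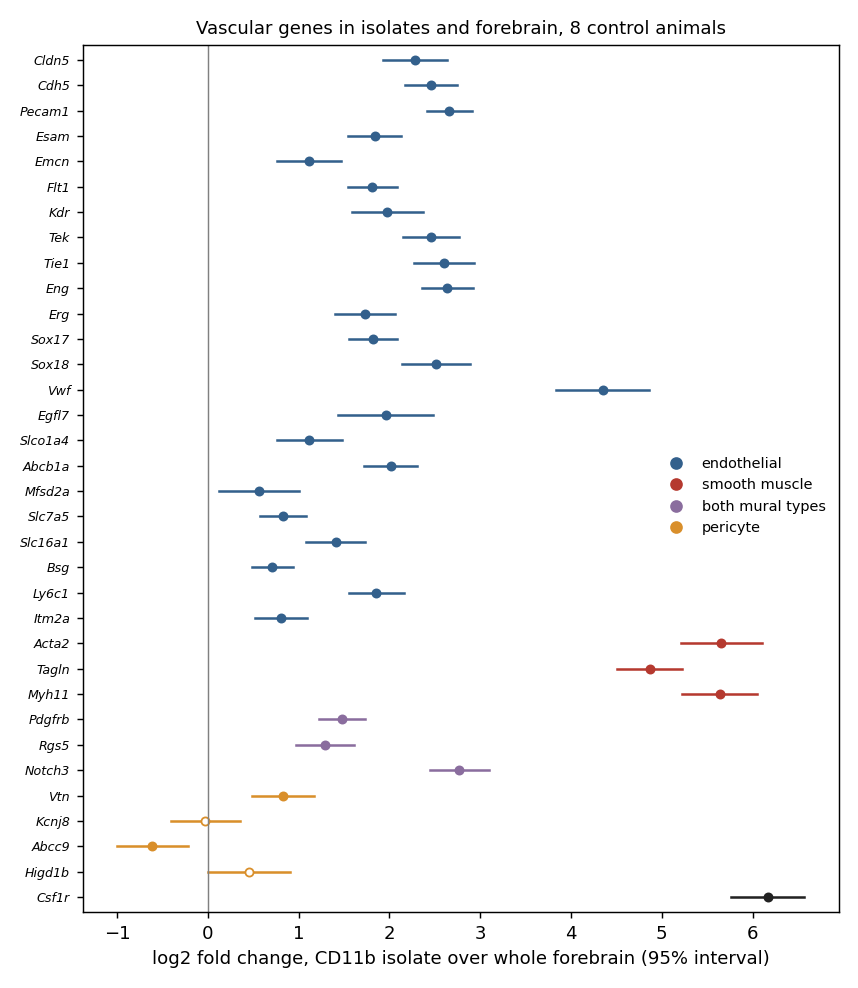
Log2 fold change of each gene between CD11b isolates and whole forebrain of the 8 control animals (x axis; points, edgeR estimate; bars, 95% interval; filled points, adjusted p under 0.05), with genes on the y axis in order of role and colours for the cell type. The smooth muscle genes Acta2, Myh11 and Tagln sit at 4.87 to 5.66 and Csf1r at 6.17, the endothelial genes between 0.56 and 4.35, and Abcc9 lies below 0.

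Acta2, the smooth muscle actin, ran from 3.82 to 8.48 CPM in control forebrain (median 5.70) and from 182 to 392 CPM in isolates (median 302). Its log2 fold change was 5.66 (SE 0.21, adjusted edgeR p 4.83e-13). Myh11, the smooth muscle myosin heavy chain, went from a median of 7.48 CPM to 369 CPM (5.64, SE 0.19), and Tagln, an actin-binding protein of the same cells, from 3.62 to 105 CPM (4.87, SE 0.17). The ranges of isolates and forebrain did not overlap for any gene of this trio. The microglial Csf1r rose by 6.17 in the same contrast. Of the exonic bases of Tagln, 67.9% overlap another annotated gene (Pcsk7 or Gm48529), and counting by strand was not stated, so its value may include reads of those genes. Acta2 and Myh11 overlap no other listed gene.

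Genes made by both mural types came next. Notch3, the Notch receptor of mural cells, rose by 2.77 (SE 0.15), from a median of 15.6 CPM to 103 CPM, with 44.8% of its exonic bases shared with Gm17276. Pdgfrb, the receptor through which endothelial PDGF-B recruits mural cells, ran from 21.3 to 30.9 CPM in forebrain and from 55.9 to 103 CPM in isolates (1.48, SE 0.12). Rgs5, a regulator of G-protein signalling abundant in pericytes, ran from 171 to 199.7 CPM and from 273 to 611 CPM (1.29, SE 0.15). For all 3 genes the lowest isolate was above the highest forebrain library.

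The pericyte genes were mixed, with no test between groups of genes. Kcnj8 and Abcc9 encode the pore and the regulatory subunit of the same potassium channel and lie side by side on chromosome 6. Abcc9 ran from 17.6 to 21.7 CPM in control forebrain and from 6.91 to 20.1 CPM in isolates, a change of -0.61 in log2 (SE 0.18; edgeR, adjusted p 0.00559). It was the 1 member called lower in isolates. In Het animals alone it fell by 0.86 (adjusted edgeR p 0.0199), and in anti-gp120 animals alone the value was -0.32 (adjusted p 0.173). The difference between experiments was not tested. Kcnj8 ran from 2.44 to 3.20 CPM in forebrain and from 1.67 to 4.13 CPM in isolates, and its log2 fold change was -0.03 (95% interval -0.41 to 0.35). With RLE scaling or DESeq2 that value was 0.01 or 0.00, and it was -0.26 in Het animals alone and 0.26 in anti-gp120 animals alone (adjusted edgeR p 0.404 and 0.308). Higd1b encodes a mitochondrial protein and is used as a pericyte marker. It stood at 0.45 (adjusted edgeR p 0.0598) and passed the threshold with DESeq2 (adjusted p 0.0357), with RLE scaling (0.0491), without a filter on low counts (0.0284) and without Het animal 23 (0.00174). It was 0.08 in Het animals alone (adjusted edgeR p 0.825) and 0.84 in anti-gp120 animals alone (adjusted edgeR p 0.00583). Vtn, the matrix protein vitronectin that brain pericytes secrete, rose by 0.83 (SE 0.16). In Het animals alone it stood at 0.72 (adjusted edgeR p 0.0508).

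Among endothelial genes Vwf, the clotting factor carrier stored in endothelial granules, stood apart. It ran from 22.4 to 45.5 CPM in control forebrain and from 333 to 1108 CPM in isolates, a log2 fold change of 4.35 (SE 0.24). Pecam1, an adhesion molecule of endothelial contacts, followed at 2.66 (SE 0.12), and Eng, a co-receptor for TGF-beta family ligands, at 2.64 (SE 0.13). The genes Flt1, Kdr, Tek, Tie1 and Eng, 5 receptors and co-receptors of the VEGF, angiopoietin and TGF-beta family pathways, had a median of 2.46 and ranged from 1.81 to 2.64. The 5 junction and adhesion genes Cldn5, Cdh5, Pecam1, Esam and Emcn had a median of 2.28. The transcription factors Erg, Sox17 and Sox18 lay between 1.73 and 2.51.

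Several transport genes of the barrier had small values, with no test between groups of genes. The group of Slco1a4, Abcb1a, Mfsd2a, Slc7a5, Slc16a1 and the monocarboxylate transporter partner Bsg had a median log2 fold change of 0.97, from 0.56 to 2.01 (Abcb1a). Mfsd2a, the lipid transporter that keeps transcytosis low, had the smallest value of the 23 at 0.56 (SE 0.21, adjusted edgeR p 0.0198), and its range of 17.3 to 51.2 CPM in isolates spanned that of forebrain (19.5 to 30.1 CPM). That call was lost without Het animal 1 (adjusted p 0.0510) and without anti-gp120 animal 15 (adjusted p 0.0779). It was also lost within each experiment, at 0.55 in Het animals alone (adjusted p 0.0665) and 0.61 in anti-gp120 animals alone (adjusted p 0.119). Bsg, which is also made outside vessels, rose by 0.71 (SE 0.11) and Itm2a, an endothelial membrane protein, by 0.80 (SE 0.14). Slco1a4, an organic anion transporter, ran from 69.3 to 104 CPM in forebrain and from 118 to 271 CPM in isolates (1.12, SE 0.17). Ly6c1 and Abcb1a have close copies (Ly6c2 and Abcb1b), so their values of 1.86 and 2.01 are uncertain in how reads were split.

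**Figure D2:**
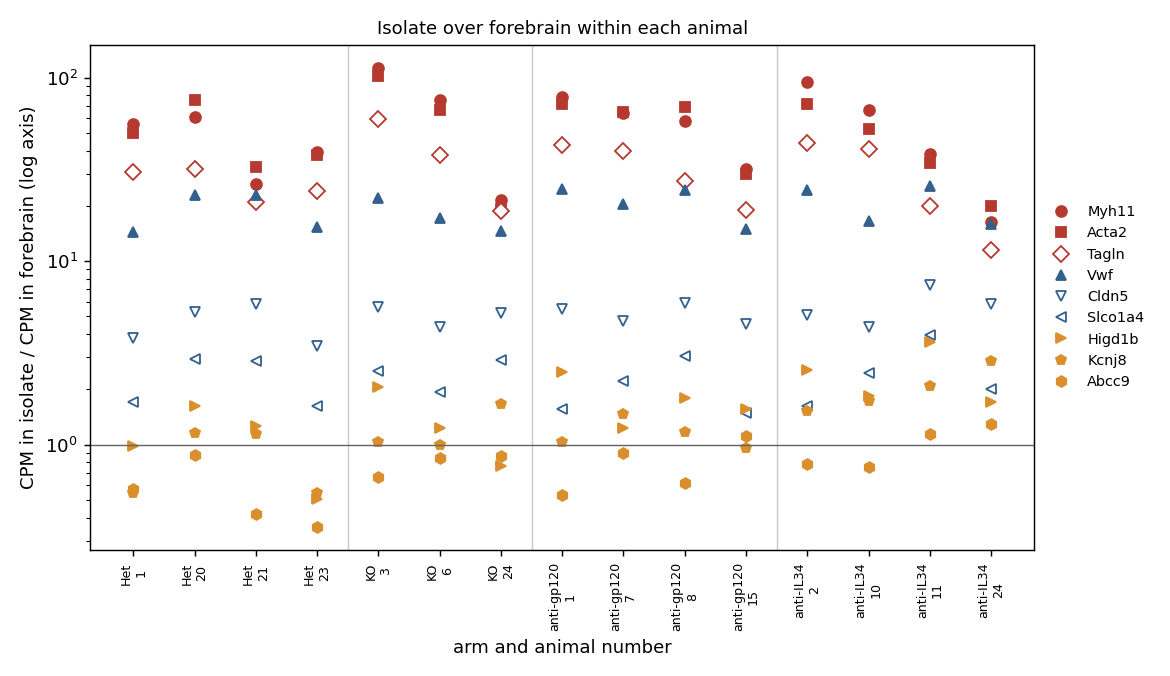
CPM in the isolate divided by CPM in the forebrain of the same animal (y axis, log scale) for 9 genes in each of the 15 animals (x axis, arm and animal number); the line at 1 marks equal levels. Red smooth muscle genes lie above the orange pericyte genes Higd1b, Kcnj8 and Abcc9 in every animal (Vtn is not shown). Vwf is the highest of the blue endothelial genes.

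The order held within animals. The level of Acta2 in the isolate divided by that in the forebrain of the same animal had a median of 57.3 over the 8 controls (29.8 to 75.4), against 57.0 for Myh11 and 28.8 for Tagln. The same quotient was 21.6 for Vwf (14.5 to 24.6), 3.47 for Flt1 and 1.97 for Slco1a4, and it ran from 3.43 to 5.90 for Cldn5. It was 1.09 for Kcnj8 and 0.592 for Abcc9 (0.357 to 1.12). In 8 of 8 controls, and in 15 of 15 animals with the treated arms included, each of the smooth muscle trio exceeded each endothelial gene other than Vwf and each of Kcnj8, Abcc9 and Higd1b. The trio exceeded Vwf in 7 of 8 controls and 12 of 15 animals. Vwf led the 23 endothelial genes in 15 of 15 animals, and Abcc9 was below 1 in 7 of 8 controls and 12 of 15 animals. Library quality, cell yield and handling differ between a bead isolate and whole tissue, and their part in this contrast was not tested.

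Ratios between smooth muscle genes varied little between isolates. Across the 15 isolates Acta2 varied from 128 to 592 CPM, yet the ratio of Acta2 to Tagln counts stayed between 2.59 and 3.10, and that of Myh11 to Acta2 between 1.01 and 1.36. The highest ratio was 1.19 times the lowest for the first pair and 1.34 times for the second, against 1.39 times for the endothelial pair Cdh5 and Cldn5 and 1.43 times for Kdr and Flt1. For Pecam1 over Cdh5 it was 1.63 times in isolates. In forebrain that pair gave 1.28 times, below the 1.65 times of Myh11 over Acta2. In forebrain Acta2 over Tagln ranged from 1.15 to 2.74, with a median of 1.79 against 2.87 in isolates. The part of low counts and of reads from genes that overlap Tagln was not tested. The ratio of Acta2 to Cldn5 in the same isolates ran from 1.65 to 6.69, and in forebrain from 0.216 to 0.843. The highest value was 4.05 times the lowest in isolates and 3.90 times in forebrain. These ratios compare counts of different genes and describe the libraries, not molecules per cell.

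Genes of the same cell types outside the 33 were read from further lists. Of 32 other endothelial genes 30 were higher in isolates (median 1.92; smallest p, Fli1 4.45 and Ets1 2.46, ETS factors that leukocytes also express), and Plvap (-0.40) and Cxcl12 (-0.32) did not pass. All 10 other smooth muscle genes were higher (median 3.54; smallest p, Myl9 3.71 and Mylk 3.15, a myosin light chain and its kinase). Of 14 other pericyte genes 8 were higher and 2 lower (median 0.68), with Tbx18 (2.03) and Foxc1 (1.76) of smallest p and the pericyte ATPase Atp13a5 (-0.75) and Zic1 (-0.50) lower. Of 12 arterial and venous endothelial genes 9 were higher and 3 lower (median 2.03). The arterial genes Gkn3 (4.60) and Sema3g (3.92) had the smallest p. Among genes named after their values were seen, the arterial Bmx (4.01), Gja5 (3.67) and Gja4 (3.18) also rose, the venous Nr2f2 rose by 0.77, and Ackr1, a gene of venules, fell by 1.71. Vegfc, Vcam1 and Ephb4, also on the list, were called higher as well. Arterial and venous genes were not compared by a test. Efnb2 (-0.81) and Hey1 (-0.48), arterial genes that neurons and glia also make, were lower. Neuronal markers fell by a median of 3.87 in the same contrast, and their part in the values of Efnb2 and Hey1 was not tested.

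The effect of losing IL-34 on vascular genes was read by comparing arms within each experiment and sample type. In none of the 4 comparisons was any of the 33 genes called. In bulk RNA, fewer cells of a type and less RNA per cell cannot be told apart. P-values and intervals measure the spread between animals.

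**Figure D3:**
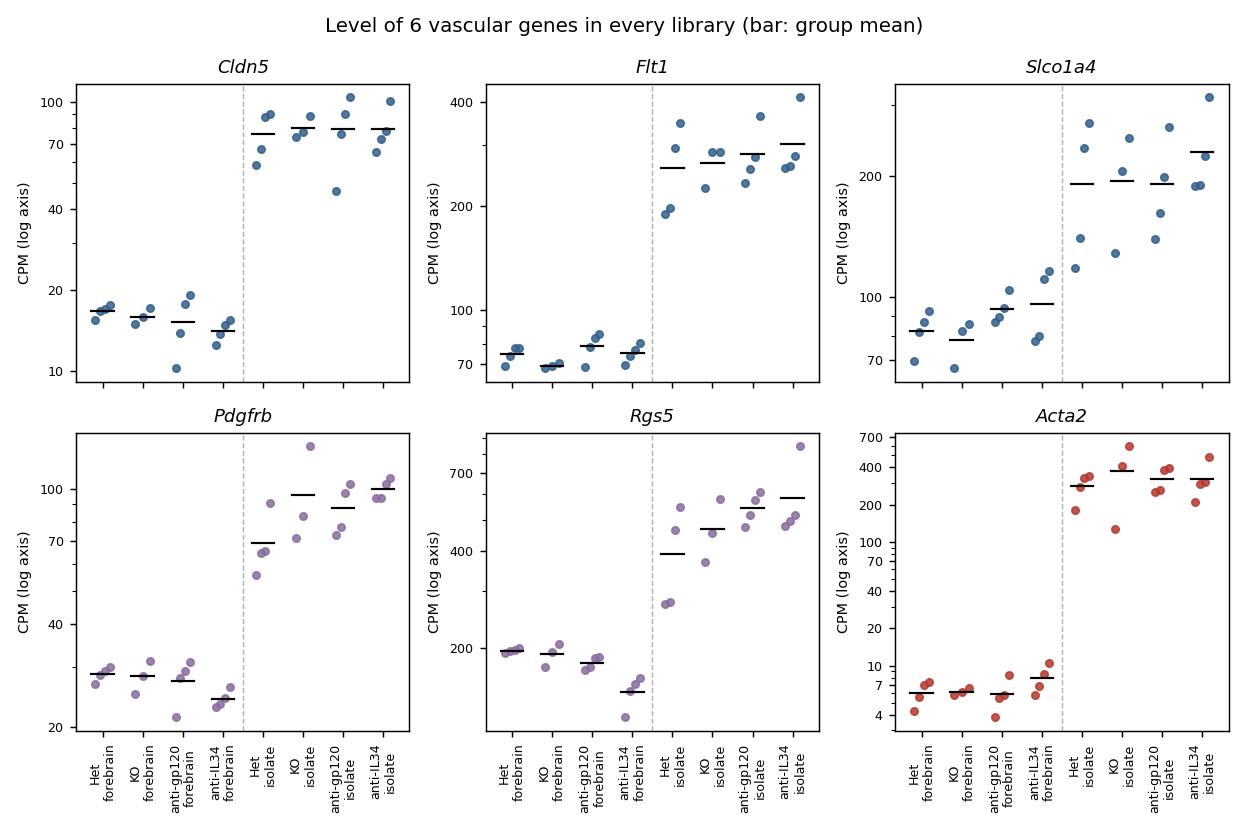
CPM (y axis, log scale) of 3 endothelial genes (Cldn5, Flt1, Slco1a4) and 3 mural genes (Pdgfrb, Rgs5, Acta2) in every library, by arm and sample type (x axis; points, animals; bars, group means; dashed line, forebrain to the left and isolates to the right). Arms overlap within each sample type for all 6 genes except Rgs5 in forebrain of the antibody experiment, at 122 to 161 CPM with anti-IL34 and 171 to 188 CPM with anti-gp120.

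In forebrain of the deletion experiment 0 of 23 endothelial and 0 of 10 mural genes passed the threshold by edgeR or by DESeq2, against 0.62% of all 19343 genes tested with edgeR and 0.938% of those with an adjusted p from DESeq2. At an unadjusted p under 0.05 there were 3 endothelial and 0 mural genes, against 7.45% of all genes. The median log2 fold change was -0.08 for endothelial and -0.07 for mural genes, against -0.00 for all genes. In the same libraries 9 of 10 microglial markers fell, with a median of -1.36, and Csf1r fell by 1.42. Of 8 oligodendrocyte markers 6 fell (median -0.32). The precision was high here: 21 of 23 endothelial and 8 of 10 mural genes had a 95% interval inside ±0.5 on the log2 scale.

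Cldn5, the main claudin of brain tight junctions, stood at 17.5, 16.8, 15.5 and 17.0 CPM in Het forebrain and at 15.8, 17.1 and 14.9 CPM in KO forebrain. Flt1, a VEGF receptor, stood at 69.0, 77.9, 73.9 and 78.1 CPM in Het and 70.5, 68.0 and 68.8 CPM in KO. Slco1a4 stood at 69.3, 92.6, 82.0 and 86.7 CPM in Het and 82.5, 66.6 and 86.0 CPM in KO. The arms overlapped for all 3, and their log2 fold changes were -0.05, -0.10 and -0.08. Pdgfrb stood at 29.9, 26.7, 28.3 and 29.2 CPM in Het and 31.2, 28.2 and 25.0 CPM in KO. Rgs5 stood at 196, 197, 199.7 and 192 CPM in Het and 174, 206 and 194 CPM in KO. Acta2 stood at 6.93, 4.33, 5.59 and 7.32 CPM in Het and 5.78, 6.08 and 6.65 CPM in KO. Again the arms overlapped, with log2 fold changes of 0.02 (95% interval -0.11 to 0.15) for Pdgfrb, -0.03 (-0.14 to 0.08) for Rgs5 and 0.04 (-0.30 to 0.39) for Acta2.

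The endothelial gene with the smallest p was Egfl7, a secreted regulator of vessel formation. It stood at 1.12, 0.806, 1.43 and 1.17 CPM in Het forebrain and at 2.01, 1.62 and 1.48 CPM in KO forebrain, with every KO library above every Het library. Such separation, in either direction, was seen for 8.33% of all genes and, among the 33, for Egfl7. Its log2 fold change was 0.68 (SE 0.20) with an adjusted edgeR p of 0.297. Its counts were 33 to 89 per library, and 84.2% of its exonic bases overlap Gm20532, Mir126a, Mir126b or Agpat2. The mural gene with the smallest p was Myh11, with a log2 fold change of -0.16 (adjusted edgeR p 0.806), at 7.24, 6.66, 7.80 and 8.54 CPM in Het and 7.11, 6.06 and 6.96 CPM in KO. Without Het animal 23 the value was -0.05.

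In forebrain of the antibody experiment 0 of 23 endothelial and 0 of 10 mural genes were called by edgeR or by DESeq2, against 0.717% of 17143 genes tested with edgeR and 1.16% with DESeq2. At an unadjusted p under 0.05 there were 1 endothelial and 2 mural genes, against 4.86% of all genes. Median log2 fold changes were -0.05 and -0.12, against 0.00 for all genes, while 9 of 10 microglial markers fell (median -1.24). Summed erythroid markers ran from 16.4 to 45.3 CPM with anti-gp120 and from 7.63 to 29.1 CPM with anti-IL34. Summed border macrophage markers ran from 17.1 to 26.5 CPM and from 7.52 to 16.9 CPM. The part of these markers in the vascular values of forebrain was not tested. Intervals were wider than in the deletion experiment, inside ±0.5 for 17 of 23 endothelial and 5 of 10 mural genes. Cldn5 stood at 13.9, 19.2, 17.7 and 10.2 CPM with anti-gp120 and 15.4, 14.9, 13.7 and 12.5 CPM with anti-IL34. Flt1 stood at 83.5, 78.5, 85.5 and 68.7 CPM, and 80.4, 73.6, 69.7 and 76.8 CPM. Slco1a4 stood at 104, 89.2, 87.0 and 94.2 CPM, and 116, 77.9, 80.0 and 111 CPM. Arms overlapped for these 3 endothelial genes.

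Among mural genes the values were mixed, with no member past the threshold. Rgs5 stood at 171, 175, 188 and 187 CPM with anti-gp120 and 147, 154, 161 and 122 CPM with anti-IL34, so each treated library was below each control library. Its log2 fold change was -0.24 (SE 0.07) with an adjusted edgeR p of 0.380. Kcnj8 (-0.43, adjusted edgeR p 0.951), named after its values were seen, also did not overlap between arms, at 2.44, 2.80, 2.95 and 2.71 CPM against 2.29, 2.28, 1.63 and 1.74 CPM. Separation of this kind was seen for 3.45% of all genes in either direction. Pdgfrb stood at 27.7, 30.9, 29.1 and 21.3 CPM against 23.3, 24.3, 22.8 and 26.2 CPM (-0.19), with arms that overlapped. The smooth muscle genes Acta2 (0.49), Tagln (0.40) and Myh11 (0.37) had positive values, with Acta2 at 5.44, 5.82, 3.82 and 8.48 CPM against 6.80, 5.85, 8.63 and 10.5 CPM. Of 14 other pericyte genes 11 were positive (median 0.07) and of 10 other smooth muscle genes 8 (median 0.08), with 0 called in either list. The difference between pericyte and smooth muscle genes was not tested. The endothelial gene with the smallest p was Mfsd2a (-0.39, SE 0.15, adjusted edgeR p 0.796), at 19.5, 30.1, 28.6 and 20.4 CPM against 19.1, 21.1, 17.5 and 16.8 CPM. Its value was -0.22 without anti-gp120 animal 7. Without a filter on low counts Mfsd2a (adjusted p 0.0129) and Acta2 (0.49, adjusted p 0.0497) passed, in a fit that called 1.15% of all genes.

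**Figure D4:**
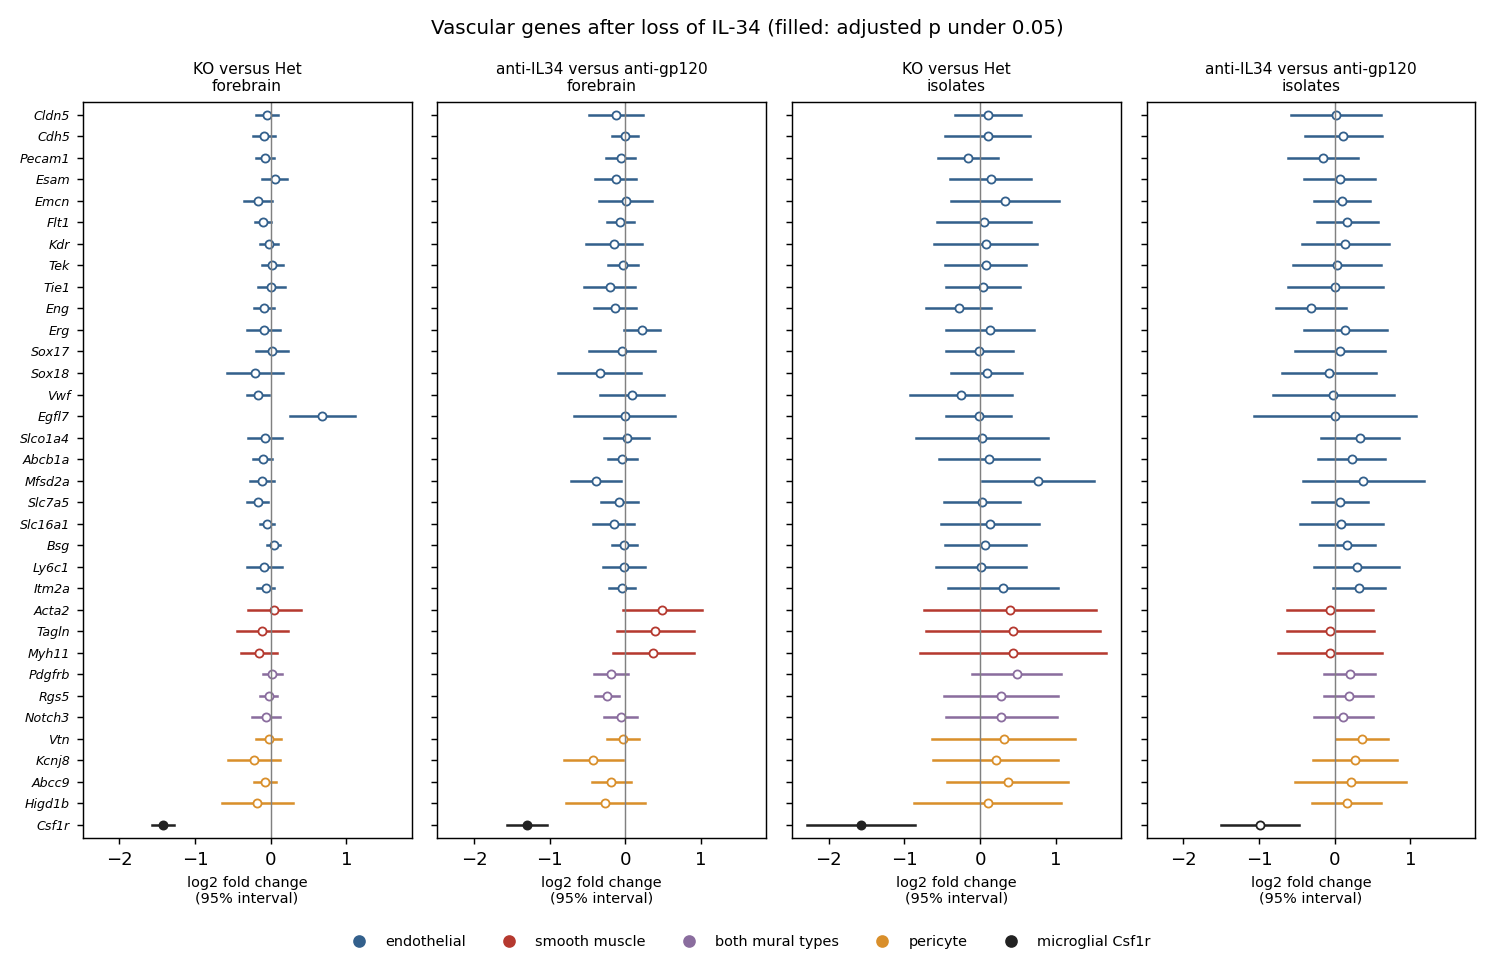
Log2 fold change (x axis; points, edgeR estimate; bars, 95% interval; filled points, adjusted p under 0.05) of the 33 genes and the microglial Csf1r (y axis) in the 4 comparisons of arms. No vascular gene is filled, while Csf1r lies between -1.57 and -0.99, and intervals are wider in isolates than in forebrain.

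In isolates of the deletion experiment 0 of 23 endothelial and 0 of 10 mural genes were called by edgeR or by DESeq2, against 5.37% of 18185 genes tested with edgeR and 24.2% with DESeq2. The edgeR count over all genes was 0 in 5 of 7 fits that left out 1 animal. At an unadjusted p under 0.05 there were 1 endothelial and 0 mural genes, against 32.6% of all genes. The median log2 fold change was 0.07 for endothelial genes and 0.34 for mural genes, of which 10 of 10 were positive, against 0.02 for all genes. In these isolates 10 of 10 microglial markers fell (median -1.55). Markers of other cell types had 0 called in these 5 lists: the medians were 0.95 for 8 astrocyte, 0.83 for 8 oligodendrocyte and 0.96 for 8 neuronal markers, all positive, and -0.54 for 8 choroid plexus and -0.17 for 7 border macrophage markers, all negative. The summed level of the astrocyte markers ran from 3141 to 11446 CPM in Het and from 12565 to 15814 CPM in KO isolates. Medians were 0.52 for perivascular fibroblast genes (9 of 9 positive) and 0.38 for neutrophil and monocyte markers (7 of 8 positive), with 0 called. Summed erythroid markers ran from 10.8 to 25.7 CPM in Het and from 13.2 to 50.9 CPM in KO isolates. The part of these markers in the positive mural values was not tested. Summed other smooth muscle genes ran from 277 to 484 CPM in Het and from 210 to 820 CPM in KO isolates. Summed other pericyte genes ran from 184 to 314 CPM in Het and from 223 to 436 CPM in KO isolates.

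The smooth muscle genes varied the most. Acta2 stood at 344, 327, 182 and 276 CPM in Het isolates and at 592, 407 and 128 CPM in KO isolates, so the KO arm held both the highest and the lowest library (0.40, 95% interval -0.74 to 1.54). Pdgfrb, the mural gene with the smallest p, stood at 65.6, 90.5, 64.8 and 55.9 CPM in Het and 133, 83.2 and 71.4 CPM in KO (0.48, SE 0.25, adjusted edgeR p 0.213). Without KO animal 3 the value was 0.09, and without Het animal 20 it was 0.76. Rgs5 stood at 273, 546, 465 and 279 CPM in Het and 581, 456 and 369 CPM in KO. The highest value of all 3 genes was in KO animal 3, and arms overlapped for each.

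Cldn5 stood at 66.9, 88.2, 90.7 and 58.1 CPM in Het isolates and 88.5, 74.4 and 77.5 CPM in KO. Flt1 stood at 198, 347, 296 and 190.1 CPM in Het and 286, 227 and 287 CPM in KO. Slco1a4 stood at 118, 271, 235 and 140.3 CPM in Het and 207, 129 and 249 CPM in KO. For these genes the KO libraries lay within the Het range, with log2 fold changes of 0.11, 0.06 and 0.03. Mfsd2a, the endothelial gene with the smallest p, stood at 50.5, 39.4, 20.2 and 40.3 CPM in Het and 63.8, 51.6 and 77.7 CPM in KO. Its arms did not overlap, as for 37.7% of all genes in this comparison, and its log2 fold change was 0.77 (SE 0.31) with an adjusted edgeR p of 0.146. Without Het animal 1 it was 1.03 with an adjusted p of 0.0272, in a fit that called 31.5% of all genes. Intervals were wide: 2 of 23 endothelial and 0 of 10 mural genes had one inside ±0.5.

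In isolates of the antibody experiment 0 of 23 endothelial and 0 of 10 mural genes were called by edgeR or by DESeq2, against 0.626% of 17570 genes tested with edgeR and 12.2% with DESeq2. Without anti-gp120 animal 15, edgeR called 40.4% of all genes and 1 endothelial gene (Eng, -0.49). At an unadjusted p under 0.05 there were 0 endothelial genes and 1 mural gene, against 25.9% of all genes. Median log2 fold changes were 0.09 for endothelial and 0.17 for mural genes, against 0.06 for all genes. Of the microglial markers 4 of 10 were called lower (median -1.001), and Csf1r stood at -0.99 with an adjusted edgeR p of 0.0749. The summed level of these markers did not overlap, at 15559 to 21596 CPM with anti-gp120 and 7224 to 11518 CPM with anti-IL34. Medians were 0.68 for astrocyte, 0.68 for oligodendrocyte and 0.96 for neuronal markers, with 0 called. They were 0.74 for neutrophil and monocyte markers (7 of 8 positive), -0.47 for border macrophage markers (6 of 7 negative) and 0.42 for perivascular fibroblast genes (9 of 9 positive), also with 0 called. Summed choroid plexus markers ran from 4.38 to 8.26 CPM with anti-gp120 and from 5.82 to 2209 CPM with anti-IL34. The part of these markers in the vascular values was not tested. None of the 33 genes separated the arms, against 15.6% of all genes.

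Vtn, the mural gene with the smallest p, stood at 63.6, 61.1, 71.0 and 52.7 CPM with anti-gp120 and 80.7, 63.2, 83.9 and 89.1 CPM with anti-IL34 (0.36, SE 0.15, adjusted edgeR p 0.186). Itm2a, the endothelial gene with the smallest p, stood at 61.7, 67.1, 71.1 and 79.7 CPM and at 63.3, 70.5, 104 and 93.5 CPM (0.32, adjusted edgeR p 0.206). Without anti-IL34 animal 24 the value was 0.21. Cldn5 stood at 76.2, 90.5, 104 and 46.5 CPM and at 78.0, 65.2, 101 and 72.7 CPM. Its arms overlapped almost fully. Flt1 stood at 257, 277, 365 and 234 CPM and at 257, 261, 414 and 280.5 CPM. Slco1a4 stood at 162, 199, 265 and 139 CPM and at 189, 190.4, 315 and 224 CPM. Both had their highest library in anti-IL34 animal 11, the arm's 1 female, and overlapped between arms. Pdgfrb stood at 73.2, 103, 96.9 and 77.0 CPM and at 103, 93.9, 107 and 93.9 CPM. Rgs5 stood at 476, 516, 611 and 578 CPM and at 495, 518, 846 and 479 CPM. Acta2 stood at 392, 379, 264 and 253 CPM and at 485, 306, 296 and 208 CPM. None of these mural genes passed the test, and the arms overlapped for each.

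Whether the arms' effects differed was tested directly. Between deletion and antibody, edgeR called 0 of 33 members in forebrain (0.0101% of all genes) and 0 of 33 in isolates (0% of all genes). At an unadjusted p under 0.05 there were 1 endothelial and 1 mural gene in forebrain (3.07% of all genes) and 0 members in isolates (3.95%). Between isolates and forebrain, edgeR fits without a term for the animal called 0 of 33 for the deletion (2.98% of all genes). They called 0 of 33 for the antibody (0.0924%). With the animal as a block, 0 of all genes were called for either. Without that block 2 endothelial and 0 mural genes had an unadjusted p under 0.05 for the deletion (31% of all genes). For the antibody there were 0 endothelial and 2 mural genes (21.1%). DESeq2 called 1 member, Egfl7, for the deletion between sample types (-0.71, adjusted p 0.0325), where it called 22.4% of all genes. It called 0 members for the antibody between sample types (8.86% of all genes), with no adjusted p for Egfl7, Higd1b and Kcnj8. Between deletion and antibody it called 0 members in forebrain (0.161% of all genes) and in isolates (0.227%). With edgeR, Mfsd2a was called for the deletion between sample types without a filter (4.82% of all genes called), without Het animal 1 (28.5%) and without Het animal 21 (16.3%), and for the antibody without a filter (4.15%). For Myh11 in forebrain the deletion effect minus the antibody effect was -0.52 (95% interval -1.15 to 0.11). For the deletion between sample types the mural median was 0.44 and the endothelial 0.14, against 0.12 for all genes.

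In the further vascular lists a few genes passed. In KO isolates 2 of 32 other endothelial genes and 1 of 22 angiogenic and Wnt genes were called, with 0 in the other vascular lists, against 5.37% of all genes. Fli1 fell by 1.19 (adjusted edgeR p 0.0231), Ets1 by 0.78 (adjusted p 0.0361) and Lrp5, a Wnt co-receptor, by 0.94 (adjusted p 0.0216). In those isolates 10 of 10 microglial markers fell as well, and the part of myeloid cells in the values of these 3 genes was not tested. Their calls were lost when any of 5 animals (Het 20 or 23, KO 3, 6 or 24) was left out, with adjusted p of at most 0.289, as were all calls in that comparison. In the test of the deletion effect between isolates and forebrain, 2 of 32 other endothelial, 2 of 22 angiogenic and Wnt and 1 of 12 arterial and venous genes were called, against 2.98% of all genes. Fli1 (-0.95), Ets1 (-0.74), Lrp5 (-0.82) and Pdgfb (-1.41), the ligand that recruits mural cells, were called lower in isolates, and Hey1 (0.61) was called higher. Adjusted edgeR p ran from 0.0310 for Hey1 to 0.0445 for Fli1. These 5 calls were lost in 5 of 7 fits that left out 1 animal and with the animal as a block (adjusted p from 0.101 for Hey1 to 0.118 for Pdgfb). With anti-IL34 in forebrain 1 of 32 other endothelial genes was called, against 0.717% of all genes. It was the sphingosine-1-phosphate receptor gene S1pr1, which astrocytes also express and which fell by 0.34 (SE 0.06, adjusted edgeR p 0.0217). That call was lost without any of 6 of the 8 animals (all but anti-gp120 15 and anti-IL34 2), at an adjusted p of at most 0.189.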

How the data were processed

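RNA of 30 libraries from 15 mice was analysed, a forebrain library and a CD11b isolate of each animal. RNA had been extracted with TRIzol and chloroform and amplified with the SMART-Seq v4 Ultra Low Input kit, per the labels' protocols. The deposited table holds raw counts per gene, with gene names and a gene length that equals the gene span for all 33 members, so no level per length is given. Ratios of counts between genes describe libraries only. The submitters' processing notes name STAR 2.7.5c, featureCounts 1.6.3, R 4.4.0 and GRCm38, without saying how each was used, and strand use is not given in the sources used here. The deposited TPM table was not used, nor were 6 count columns that no label matched.

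Arms were compared within a sample type with edgeR 4.0.16 (R 4.3.3, limma 3.58.1): filterByExpr with a minimum count of 10, TMM scaling, sex as a covariate, the quasi-likelihood F test and Benjamini-Hochberg adjustment over all genes tested, called at 0.05. The SE of a log2 fold change was its size over the root of its F value, and 95% intervals used that SE. CPM used 1 TMM scaling of 20634 genes. The scripts were tested on simulated data. DESeq2 1.42.0, RLE scaling, no filter, no sex term, 1 fit of 15 libraries, the animal as a block, each experiment's controls alone and leaving out each animal were tried. Both libraries of an animal come from 1 brain, per the labels, so animals pair them. The main fits between sample types held no term for the animal, so both libraries entered as independent. The block was tried as an alternative. The correlation of their deviations had a median of 0.109 (0.0394 to 0.172; above 0.1 in 9 of 15). No 2 replicate libraries agreed within sampling noise (lowest chi-square per degree of freedom 5.63 over 42 pairs).

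Members, lists and tests were chosen with earlier results of these data known. Values per library are given for 3 endothelial (Cldn5, Flt1, Slco1a4) and 3 mural genes (Pdgfrb, Rgs5, Acta2), and in each comparison of arms for up to 4 further members that passed or, where none passed, the endothelial and the mural member with the smallest p. Kcnj8 in forebrain with anti-IL34 was added after its values were seen. For the sample types, the 3 largest and 3 smallest changes of each class are given, and for other lists the 2 genes of smallest p where any passed.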

Additional observations from a re-analysis of the deposited data

Results flagged for a closer look

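In 198 sets of 4 libraries (each 1 gene in 1 group), 1 library stood far from the other 3 in 10 cases. Chance gives about 1 in 20 for independent sets. Genes of a group share the same libraries, so this number cannot be judged by that rate. Of these cases 5 were the isolate of anti-IL34 animal 11, the arm's 1 female. It had the highest level of Flt1 (414 CPM, others 257 to 280.5), Esam (74.998 CPM, others 47.8 to 48.9), Eng (192 CPM, others 122 to 128), Erg (44.8 CPM, others 25.6 to 27.2) and Rgs5 (846 CPM, others 479 to 518).

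In anti-IL34 forebrain, animal 2 was the highest for Sox17 (8.60 CPM, others 4.83 to 5.10) and Vtn (35.8 CPM, others 30.4 to 31.0), and animal 11 the lowest for Notch3 (11.2 CPM, others 14.6 to 15.1). In anti-gp120 forebrain, animal 7 was the highest for Ly6c1 (15.6 CPM, others 14.7 to 14.8) and animal 8 for Abcc9 (21.7 CPM, others 17.6 to 17.97).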

How the results depend on the processing

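The count of called members moved under these settings, with the cause not tested. Without a filter on low counts, 1 endothelial gene (Mfsd2a, -0.39) was lower and 1 mural gene (Acta2, 0.49) higher with anti-IL34 in forebrain, and 1 endothelial gene (Mfsd2a) was higher in the difference between sample types for the deletion (0.93, adjusted p 0.0462) and 1 for the antibody (0.76, adjusted p 0.0461). DESeq2 called 1 endothelial gene (Egfl7) lower in that difference for the deletion. For isolates against forebrain, 22 to 23 endothelial and 6 to 8 mural genes were called higher over the settings tried (22 to 23 and 7 to 8 when leaving out each animal). In anti-gp120 animals alone 0 mural genes were lower in isolates. Leaving out each animal gave 0 to 1 endothelial genes higher in KO isolates (Mfsd2a without Het 1), 0 to 1 lower in anti-IL34 isolates (Eng, -0.49, adjusted p 0.00932, without anti-gp120 15, when 40.4% of all genes were called) and 0 to 1 higher in the deletion difference (Mfsd2a, without Het 1 or Het 21). With the replicate block (animal), 23 endothelial and 7 mural genes were called higher and 1 mural gene lower in isolates, and 0 members were called in both differences between sample types. The block left 0 of all genes called in those differences, so the 5 calls there among other vascular genes were lost.

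Over all genes, DESeq2 called 178, 3887, 198 and 2015 genes in the arm comparisons (KO forebrain, KO isolates, anti-IL34 forebrain, anti-IL34 isolates), against 120, 976, 123 and 110 with edgeR, and edgeR without a filter called 381, 1993, 349 and 819. Without a sex term the isolate counts were 2189 and 983, and with 15 libraries in 1 fit 2734 and 988. Leaving out 1 animal gave 0 to 5756 genes in KO isolates (0 in 5 of 7 fits) and 0 to 6905 in anti-IL34 isolates (0 in 2 of 8 fits). The low counts of Egfl7 (from 10 per library), Sox18 (17) and Higd1b (18) limit their precision.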

Other observations

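Genes of the vessel surroundings were read in the same control animals. Of 10 basement membrane genes, which encode the sheet on which endothelial and mural cells sit, 9 were higher in isolates (median log2 fold change 2.17; Nid2 2.86 and Lama5 3.33 had the smallest p). Of 9 fibroblast genes tested 7 were higher and 1 lower (median 0.99): the collagen gene Col3a1 rose by 2.63 and Col6a1 fell by 1.93. Of 22 genes of angiogenic and Wnt signalling 16 were higher and 1 lower (median 1.51), among them the co-receptor genes Lrp5 (4.06) and Nrp1 (2.25), while the ligand gene Wnt7b fell by 0.66. Of 5 erythroid genes 0 were higher (median -0.20).

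The summed level of choroid plexus markers in isolates was 1695 to 3919 CPM in Het and 1171 to 3084 CPM in KO isolates, against 4.38 to 8.26 CPM in anti-gp120 isolates and 5.82 to 2209 CPM in anti-IL34 isolates, whose range overlaps all 3 others.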
